A study of Mus musculus with 4 samples.

Results

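The genes described here encode the tubulins and the proteins that bind, cap or destabilise microtubules. They are 36 genes taken by symbol, of 55471 genes in the deposited tables: 4 alpha tubulins, 7 beta tubulins, 1 gamma tubulin, 4 stathmins, 8 microtubule-associated proteins (MAPs) that bind along the lattice, 2 CLASPs, 2 CAMSAPs, 3 end-binding proteins, 2 genes of the doublecortin family and 3 collapsin response mediators. All 36 were matched, and all 36 passed the filter on low counts. They fall into 16 short genes (tubulins and stathmins, coding sequences of 447 to 1353 nt), 12 long genes (lattice-binding MAPs, CLASPs and CAMSAPs, 2214 to 9042 nt) and 8 others.

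RNA bound to tagged ribosomes was sequenced in 2 libraries from brains of mice on cuprizone and 2 from mice on mock treatment, all labelled astrocytes, batch 1 and 3 weeks. Both groups had the genotype GFAP-Cre+/- Rpl22HA/wt: Cre driven by the GFAP promoter switches 1 allele of Rpl22 to an HA-tagged form, and the tag then serves to capture ribosomes, with their RNA, from Cre-expressing cells. The design text of the series describes male mice of 8 to 9 weeks given 0.2% cuprizone by weight in chow, or a normal diet. In that text the corpus callosum was dissected at week 5, week 5.5 or week 7. These times do not match the 3 weeks of the sample labels, and the labels give the tissue as brain. Cuprizone is a copper chelator that kills oligodendrocytes and strips myelin. The labels call the libraries biological replicates without saying whether each came from 1 animal or a pool, so p-values measure only the spread between these libraries.

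Microtubules are hollow polymers of alpha and beta tubulin dimers that carry transport in axons, dendrites, astrocyte processes and the processes with which oligodendrocytes wrap axons. Stathmins bind free dimers and favour disassembly, lattice-binding MAPs stabilise or space the polymer, CLASPs and end-binding proteins act at growing plus ends, and CAMSAPs hold minus ends. Tubulin messages are also controlled on the ribosome itself: when free tubulin is in excess, the protein Ttc5 reads the first residues of a new tubulin chain and starts the decay of its message.

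The stretches that carry this control, and those that set closely related tubulins apart, bear on how tubulin counts can be read. Below are the first 30 coding bases of 10 tubulins from GENCODE M21 transcripts (build GRCm38), counted from the start codon, with the first 4 codons in capitals.

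Tuba1a: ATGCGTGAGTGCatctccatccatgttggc

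Tuba1b: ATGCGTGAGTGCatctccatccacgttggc

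Tuba1c: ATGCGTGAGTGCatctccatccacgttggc

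Tuba4a: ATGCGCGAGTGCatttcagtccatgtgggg

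Tubb2a: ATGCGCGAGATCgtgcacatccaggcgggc

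Tubb2b: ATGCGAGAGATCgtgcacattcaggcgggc

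Tubb3: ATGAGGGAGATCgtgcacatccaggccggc

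Tubb4a: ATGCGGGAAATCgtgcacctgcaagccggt

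Tubb4b: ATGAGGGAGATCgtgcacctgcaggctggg

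Tubb5: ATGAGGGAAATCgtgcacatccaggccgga

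The 4 alpha tubulins shared TGC as the fourth codon and the 6 beta tubulins shown shared ATC. Tubb6 and Tubg1 were left out of this display. At the other end of the coding sequence lies the tail that differs most between distant isotypes. Its last 45 bases before the stop codon are shown for the closest beta pair, with the bases that differ between them in capitals.

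Tubb2a: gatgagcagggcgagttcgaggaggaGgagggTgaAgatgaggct

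Tubb2b: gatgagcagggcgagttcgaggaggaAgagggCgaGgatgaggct

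Of these 45 bases, 3 differed between Tubb2a and Tubb2b. Over whole coding sequences, Tuba1a and Tuba1b were 98.3% identical and Tubb2a and Tubb2b 96.5%, against 80.3% to 86.0% for every other pair of beta tubulins. Of all stretches of 75 bases in the coding sequence, 87.3% in Tuba1a, 93.8% in Tuba1b, 84.9% in Tuba1c, 52.7% in Tubb2a, 53.8% in Tubb2b, 45.7% in Tubb4b and 79.9% in Stmn1 also occurred in another annotated gene. The authors' treatment of reads that map to several genes is not given in the sources used here, so the levels of these 7 genes are uncertain. The share was 10.3% in Tubg1, with Tubg2 as its partner, and 10.2% in Camsap1. Exons of Tuba1a and Tuba1b also overlap those of Gm49450 on the same strand, which had a count of 0 in all 4 libraries. Tubb3, Tubb4a, Tubb5 and Tubb6 had no such shared stretch.

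Before the comparisons, the libraries need a description. Totals ran from 21209517 to 23822620 counts, and the 36 genes took 2.00% and 2.33% of counts in cuprizone libraries and 1.76% and 1.87% in mock libraries. Of 12 neuron markers, all were detected, and they took 1.68% and 1.66% of counts in cuprizone and 1.40% and 1.49% in mock libraries. The list went both ways, with 8 positive and 4 negative log2 folds, both cuprizone libraries above both mock libraries in 6 genes and below in 3, and 2 higher and 3 lower genes called by DESeq2. Most of its sum was Snap25, a synaptic fusion protein of neurons, at 9900 and 10008 CPM (counts scaled to the same library total) in cuprizone and 8292 and 8297 CPM in mock libraries. Among those lower in both cuprizone libraries were Thy1, at 252 and 189 CPM in cuprizone and 369 and 373 CPM in mock libraries, and Syt1, at 1075 and 904 CPM in cuprizone and 1273 and 1431 CPM in mock libraries. The 14 astrocyte markers, all detected, took 0.622% and 0.703% in cuprizone and 1.02% and 0.981% in mock libraries. Of these, 12 had negative and 2 positive log2 folds. Both cuprizone libraries lay below both mock libraries in 7 and above in 0, against 18.9% and 25.7% of all tested genes. The 10 oligodendrocyte markers took 1.05% and 1.36% in cuprizone and 1.32% and 1.53% in mock libraries, so their sums overlapped. Their log2 folds were negative in 8 and positive in 2, with -1.06 (SE 0.19) for Mbp and 0.63 (SE 0.16) for Ermn. All these cell types use microtubules, so a fold here belongs to no single cell type, and fewer cells of a type cannot be told apart from less RNA per cell. The shares are of captured RNA and the series has no input library, so they do not measure the cell content of the tissue. Cuprizone replicate 2 stood apart: 7 markers of cerebellar granule cells took 0.117% of its counts and 0.0133% in cuprizone replicate 1, against 0.00456% and 0.00342% in mock libraries. All 7 were higher in both cuprizone libraries, and Cbln3, Gabra6 and Fat2 had a count of 0 in both mock libraries. The 6 cortical excitatory markers took 0.0782% and 0.0675% in cuprizone and 0.0750% and 0.0716% in mock libraries. The 6 striatal markers took 0.0216% and 0.0209% in cuprizone and 0.0234% and 0.0235% in mock libraries. The cerebellum is not part of the corpus callosum that the design text names, but the labels give the tissue as brain, so the dissected region is not settled. The value without cuprizone replicate 2 is given beside the larger log2 folds that it moves by over 1.5 times.

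None of the 36 genes passed the test between cuprizone and mock libraries. The edgeR quasi-likelihood test, adjusted over 15816 tested genes, called 0 of 36, against 0.0822% of all tested genes (0.0316% higher and 0.0506% lower in cuprizone), and the lowest adjusted p among the 36 was 0.194, for Dpysl2. At an unadjusted p under 0.05 the same test had 8 higher and 3 lower genes in cuprizone, against a background of 5.73% and 7.04% of all tested genes. DESeq2 called 2 higher (Map1b, Dpysl2) and 2 lower (Tubb2b, Mapre1), and over all tested genes it called 4.52%, of which 1.67% higher and 2.85% lower. The limma-voom test called 0 of 36, against 0.297% of all tested genes (0.0569% higher and 0.24% lower), and edgeR with bias-adjusted dispersions also 0, against 0.322% (0.0569% higher and 0.266% lower). In 17 of 36 genes both cuprizone libraries lay above both mock libraries, and in 6 both lay below, while the groups overlapped in 13; over all tested genes the groups did not overlap in 25.7% upward and 18.9% downward. Fitted log2 folds, cuprizone over mock, were positive in 24 and negative in 12, with a median of 0.18 against 0.00 over all tested genes, of which 50.1% were positive. The median of the 36 was 0.0046 without cuprizone replicate 2 and 0.28 without cuprizone replicate 1.

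**Figure D1:**
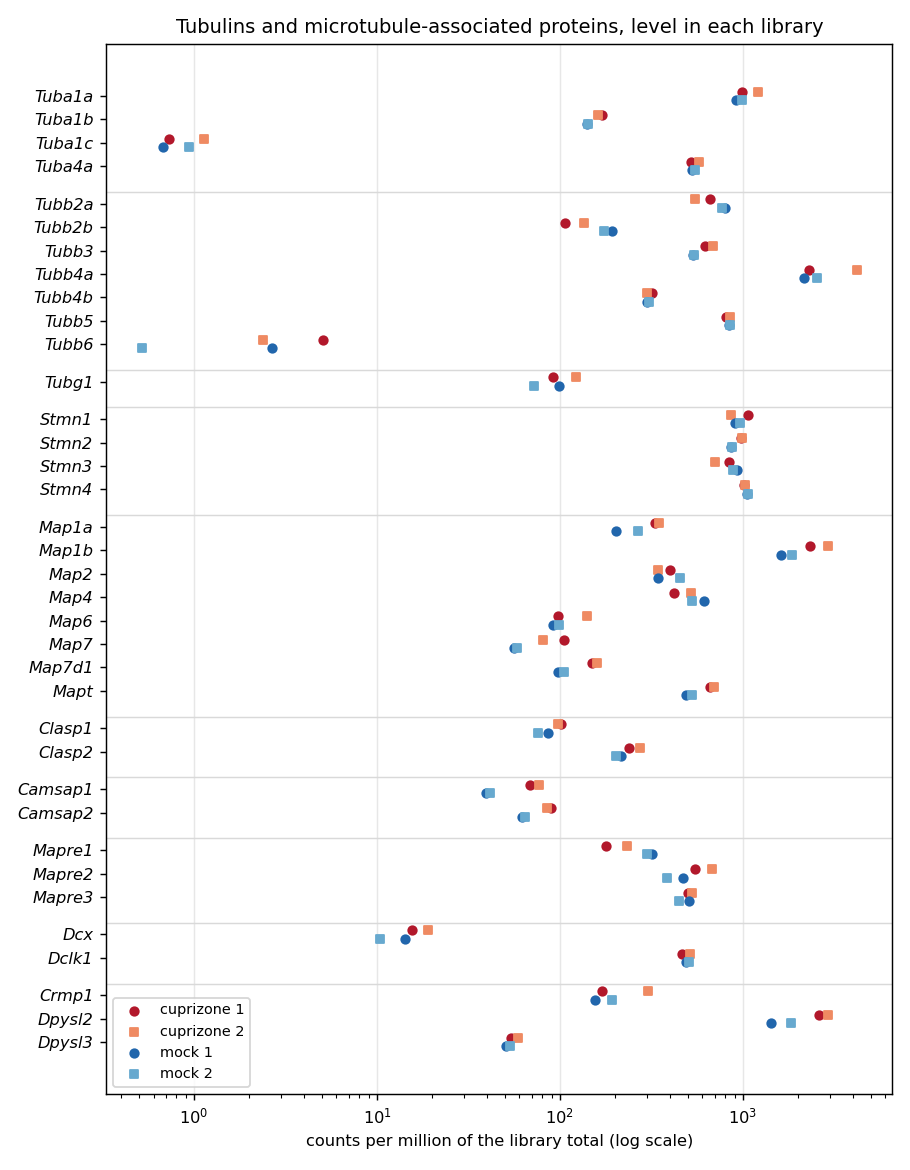
Level of each gene in each of the 4 libraries, in CPM on library totals on a log axis, with genes grouped by role from alpha tubulins at the top to collapsin response mediators at the bottom. Most genes differ little between libraries; Tubb4a and Crmp1 stand out in cuprizone 2 alone, while Dpysl2, Map1b and Camsap1 are above mock in both cuprizone libraries and Tubb2b and Mapre1 below.

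No alpha tubulin had a log2 fold larger than its SE. Tuba1a (ENSMUSG00000072235, chromosome 15, 98949837 to 98953703, minus strand), the main alpha tubulin of neurons, had 990.3 and 1205 CPM in cuprizone libraries and 920.3 and 989.5 CPM in mock libraries. Tuba1b, a housekeeping alpha tubulin, had 169 and 161 CPM in cuprizone and 140.5 and 143 CPM in mock libraries. In both genes each cuprizone library lay above each mock library by a small margin, and the log2 folds were 0.13 (SE 0.15) for Tuba1a and 0.15 (SE 0.15) for Tuba1b; that of Tuba1a was -0.028 without cuprizone replicate 2. Tuba4a had 518 and 579 CPM in cuprizone and 529 and 548 CPM in mock libraries, with a log2 fold of -0.04 (SE 0.14), and its groups overlapped. Of the exon bases of Tuba4a, 37.3% overlap exons of Stk16 on the opposite strand, and the authors' strand setting is not given; Stk16 had 692 to 1023 counts in a library, against 11309 to 13794 for Tuba4a. Tuba1c was close to absent, at 0.733 and 1.13 CPM in cuprizone and 0.678 and 0.943 CPM in mock libraries, which is 15 to 27 counts. Exon length here covers all annotated exons of a gene, 1803 bp for Tuba1a and 3701 bp for Tuba4a, so shares per kilobase depend on the annotation. Per kilobase of exon, Tuba1a made up 70.4% and 73.3% of alpha tubulin in cuprizone and 70.0% and 70.9% in mock libraries. Tuba4a made up 17.9% and 17.2% in cuprizone and 19.6% and 19.1% in mock libraries, the one alpha share whose groups did not overlap. The edgeR adjusted p of the 4 genes was 0.775 or above.

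Among beta tubulins, Tubb2a and Tubb2b were lower in both cuprizone libraries and Tubb3 was higher in both. Tubb2b (ENSMUSG00000045136, chromosome 13, 34126748 to 34130466, minus strand), a beta isotype known for its role in the developing cortex, had 107 and 135 CPM in cuprizone and 192 and 173 CPM in mock libraries. Its log2 fold was -0.66 (SE 0.19), the lowest of the 36. Its neighbour and near-copy Tubb2a had 661 and 549 CPM in cuprizone and 799 and 766 CPM in mock libraries, with a log2 fold of -0.44 (SE 0.14). The groups did not overlap in either gene, and the edgeR adjusted p was 0.254 for Tubb2b and 0.292 for Tubb2a; DESeq2 gave an adjusted p of 0.0383 and 0.112, and over all alternatives that of Tubb2b ran from 0.0383 to 0.671. Tubb3, the beta isotype used to mark neurons, had 617 and 683 CPM in cuprizone and 533 and 537 CPM in mock libraries, with a log2 fold of 0.21 (SE 0.13; edgeR adjusted p = 0.597) that was 0.12 without cuprizone replicate 2.

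Tubb4a (ENSMUSG00000062591, chromosome 17, 57080066 to 57087782, minus strand), an isotype of neurons and myelinating oligodendrocytes whose mutation in humans causes a loss of myelin, was the most abundant of the 36 per kilobase of exon. It had 2290.2 and 4191 CPM in cuprizone and 2155 and 2555 CPM in mock libraries, so that cuprizone replicate 2 was high and cuprizone replicate 1 lay between the mock libraries. The log2 fold was 0.39 (SE 0.28). Without cuprizone replicate 2, the library with the largest share of granule cell markers, it was -0.12, and without cuprizone replicate 1 it was 0.77. The part of those markers in the Tubb4a value was not tested. Tubb5, the beta isotype found in most cell types, was the steadiest of the abundant beta tubulins, with 807 and 847 CPM in cuprizone and 835 and 845 CPM in mock libraries. Tubb4b had 317 and 299.9 CPM in cuprizone and 298 and 306 CPM in mock libraries. Both had groups that overlapped, with log2 folds of -0.09 (SE 0.12) for Tubb5 and -0.04 (SE 0.14) for Tubb4b. Tubb6 was rare, at 5.04 and 2.39 CPM in cuprizone and 2.67 and 0.519 CPM in mock libraries, and its log2 fold of 1.14 had an SE of 1.00.

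As a share of beta tubulin per kilobase of exon, Tubb2b made up 2.11% and 1.93% in cuprizone and 3.76% and 3.17% in mock libraries, and Tubb2a 18.6% and 11.2% in cuprizone and 22.3% and 19.9% in mock libraries. Tubb4a made up 46.5% and 61.8% in cuprizone and 43.4% and 48.0% in mock libraries. The shares of Tubb2a and Tubb2b did not overlap between groups, while that of Tubb4a did. Shares within a family sum to a whole, so a high Tubb4a in cuprizone replicate 2 lowers the other shares there. Gamma tubulin Tubg1, which nucleates microtubules, had 91.1 and 123 CPM in cuprizone and 98.3 and 71.7 CPM in mock libraries, with groups that overlapped and a log2 fold of 0.26 (SE 0.25), or 0.019 without cuprizone replicate 2.

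**Figure D2:**
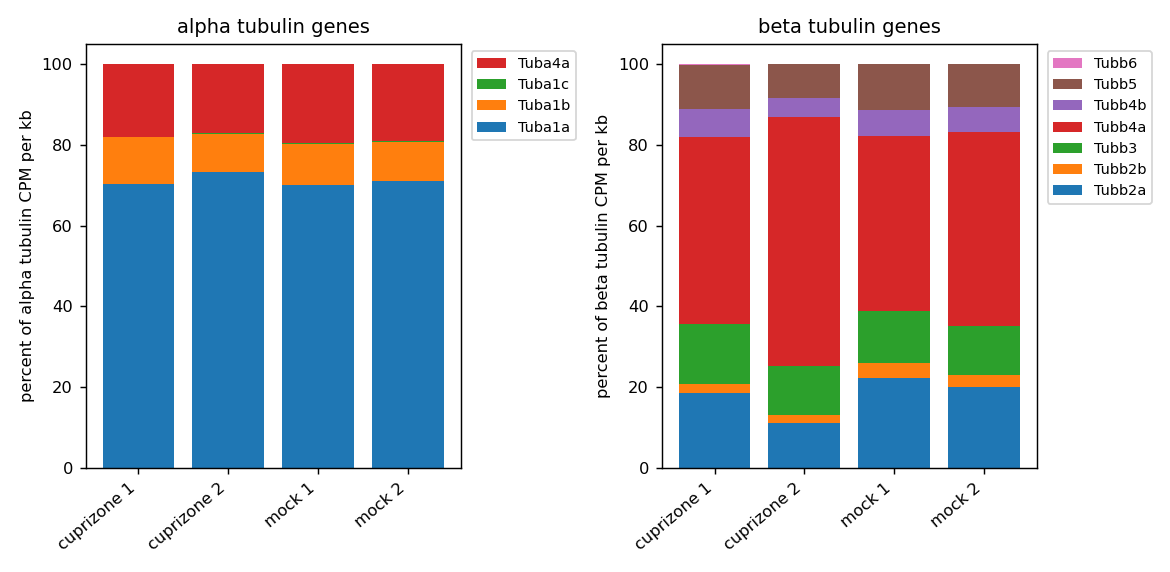
Share of each gene in the summed CPM per kilobase of exon of the alpha tubulins (left) and beta tubulins (right), in percent, for each of the 4 libraries. Among alpha tubulins Tuba1a takes 70.0% to 73.3% in every library and Tuba4a takes less in both cuprizone libraries than in mock; in the beta family Tubb4a takes 61.8% in cuprizone 2 and 43.4% to 48.0% in the other libraries, and Tubb2b takes less in both cuprizone libraries than in mock.

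The stathmins summed to 3883 and 3584 CPM in cuprizone and 3745 and 3788 CPM in mock libraries, with groups that overlapped. Stmn3, a neuronal stathmin of the Golgi and vesicles, had 836 and 703 CPM in cuprizone and 924 and 883 CPM in mock libraries, with a log2 fold of -0.30 (SE 0.14; edgeR adjusted p = 0.442), or -0.19 without cuprizone replicate 2, and with both cuprizone libraries below both mock libraries. Stmn4 was below mock in both cuprizone libraries by a small margin, at 1010.1 and 1027 CPM against 1056 and 1072 CPM. Stmn2, a neuronal stathmin linked to axon growth and upkeep, was above mock in both, at 971 and 989 CPM in cuprizone against 857 and 871 CPM in mock libraries. Stmn1, the general stathmin of dividing and immature cells, had 1066 and 865 CPM in cuprizone and 907 and 962 CPM in mock libraries and overlapped. The log2 folds were -0.13 (SE 0.12) for Stmn4, 0.11 (SE 0.12) for Stmn2 and -0.02 (SE 0.15) for Stmn1. Per kilobase of exon, Stmn3 and Stmn4 held ranks 2 and 4 of the 36 genes, but from Stmn3 down to Tubb3 the ranges of neighbouring genes overlapped over the 4 libraries.

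Of the 12 long genes, 10 had positive log2 folds, 9 had both cuprizone libraries above both mock libraries, 1 had both below and 2 overlapped. In the bins of coding length that hold them, all tested protein-coding genes had both cuprizone libraries above in 34.1% to 45.9% and below in 11.4% to 15.3%. The 16 short genes split evenly, with 8 positive and 8 negative log2 folds (Tuba4a, Tubb4b and Stmn1, negative here, were positive on library totals alone), 4 above, 4 below and 8 overlapping. In their bins the shares over all tested protein-coding genes were 16.4% and 24.0% above and 23.7% and 20.9% below, so the share above was larger in longer genes over all genes too. Map1b (ENSMUSG00000052727, chromosome 13, 99421446 to 99516540, minus strand), a MAP of growing axons, had 2313 and 2927 CPM in cuprizone and 1622 and 1863 CPM in mock libraries. Its log2 fold was 0.52 (SE 0.16; edgeR adjusted p = 0.272, DESeq2 adjusted p = 0.0441, range over all alternatives 0.0441 to 0.730), and 0.33 without cuprizone replicate 2. The related Map1a, a MAP of mature neurons, had 331 and 348 CPM in cuprizone and 202 and 268 CPM in mock libraries, with a log2 fold of 0.46 (SE 0.18). In both genes the lower cuprizone library was above the higher mock library.

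Among the other lattice-binding MAPs, Map7 and Map7d1, which recruit kinesin motors to microtubules, and tau (Mapt), the main MAP of axons, were also higher in both cuprizone libraries. Map7 had 105 and 80.4 CPM in cuprizone and 55.9 and 58.5 CPM in mock libraries, with a log2 fold of 0.63 (SE 0.21). Map7d1 had 149 and 159.6 CPM in cuprizone and 98.1 and 106 CPM in mock libraries, with a log2 fold of 0.53 (SE 0.16). Mapt had 659.8 and 694 CPM in cuprizone and 491 and 529 CPM in mock libraries, with a log2 fold of 0.34 (SE 0.13). The groups overlapped in none of these 3 genes; the gap between groups was wider than that between replicates in Map7d1 and Mapt but not in Map7. The edgeR adjusted p was 0.302 for Map7, 0.274 for Map7d1 and 0.360 for Mapt. Map6, a MAP that makes microtubules resist cold, had 97.3 and 140.0 CPM in cuprizone and 92.0 and 98.3 CPM in mock libraries and overlapped; its log2 fold of 0.25 (SE 0.23) was -0.047 without cuprizone replicate 2.

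Map2 and Map4 were the only long genes with negative log2 folds. Map2 (ENSMUSG00000015222, chromosome 1, 66175273 to 66442583, plus strand), the main MAP of dendrites, had 401 and 341 CPM in cuprizone and 342 and 451 CPM in mock libraries. Each group held both a high and a low library, and the log2 fold was -0.17 (SE 0.18), or 0.068 without mock replicate 2. Map4, a MAP of most cell types outside neurons, had 419.7 and 518 CPM in cuprizone and 614 and 525 CPM in mock libraries. Its groups did not overlap, with a log2 fold of -0.35 (SE 0.17; edgeR adjusted p = 0.463). The CPM ratio of Map1b to Map4, chosen after the values were seen, was 5.51 and 5.66 in cuprizone and 2.64 and 3.55 in mock libraries.

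CAMSAPs and CLASPs were higher in both cuprizone libraries in all 4 genes. Camsap1 (ENSMUSG00000026933, chromosome 2, 25926838 to 25983282, minus strand), which protects minus ends, had 68.5 and 77.1 CPM in cuprizone and 39.6 and 41.5 CPM in mock libraries, with a log2 fold of 0.78 (SE 0.20), the highest of the 34 genes with a mean of at least 5 CPM. Its edgeR adjusted p was 0.232 and its DESeq2 adjusted p 0.0549, and its log2 fold ran from 0.68 to 0.86 with 1 library left out. Camsap2, which acts in axons and dendrites away from the centrosome, had 88.8 and 84.8 CPM in cuprizone and 62.2 and 64.7 CPM in mock libraries, with a log2 fold of 0.38 (SE 0.18). Clasp1 had 101 and 98.1 CPM in cuprizone and 86.2 and 75.5 CPM in mock libraries, and Clasp2, which is enriched in brain, 237 and 274 CPM in cuprizone and 215 and 203 CPM in mock libraries. The log2 fold was 0.23 (SE 0.18) for Clasp1 and 0.22 (SE 0.16) for Clasp2, which was at 0.10 without cuprizone replicate 2. The summed CAMSAPs were at 159.5 CPM ± 3.22 in cuprizone and 104 CPM ± 3.12 in mock libraries (SD, n = 2 each).

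**Figure D3:**
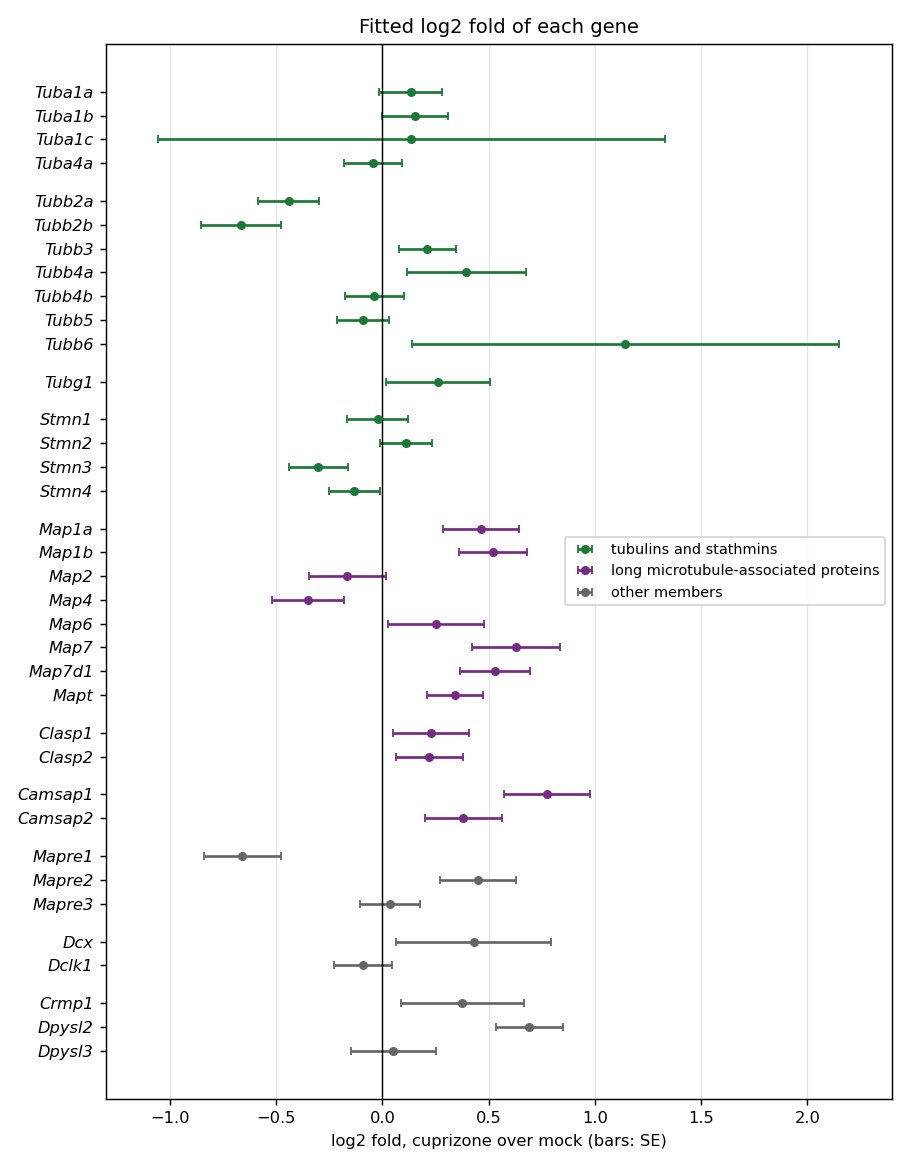
Fitted log2 fold of each gene, cuprizone over mock, with its SE as bars, coloured by length class and grouped by role in the same order as the plot of levels. Long microtubule-associated proteins lie to the right of 0 except Map2 and Map4; tubulins and stathmins lie on both sides; Tuba1c and Tubb6 have wide errors.

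The difference between the classes was set beside the same difference over all genes. The median log2 fold was 0.04 for the 16 short genes and 0.36 for the 12 long genes, a difference of -0.32, short minus long. Over all tested protein-coding genes whose coding sequence fell in the same length ranges, the median was -0.08 for 5655 genes in the short range and 0.22 for 3435 genes in the long range, a difference of -0.30. In the main fit, the gap between short tubulin or stathmin genes and long MAP genes was thus close to that over all genes in the same ranges. At a mean CPM of at least 1 these gaps were -0.38 and -0.31. Lengths within the ranges were not matched to those of the members. Across all tested protein-coding genes the median was higher in each longer bin: -0.13 under 1000 nt, 0.00 from 1000 nt, 0.08 from 1500 nt, 0.15 from 2000 nt, 0.26 from 3000 nt and 0.34 from 5000 nt. Set against the median of its own length bin, the log2 fold was above in 9 of 16 short, 8 of 12 long and 5 of 8 other genes. With 1 library left out, the difference ran from -0.38 to -0.32 for the classes and from -0.43 to -0.17 for all genes in the same ranges, being -0.38 and -0.17 without cuprizone replicate 2.

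**Figure D4:**
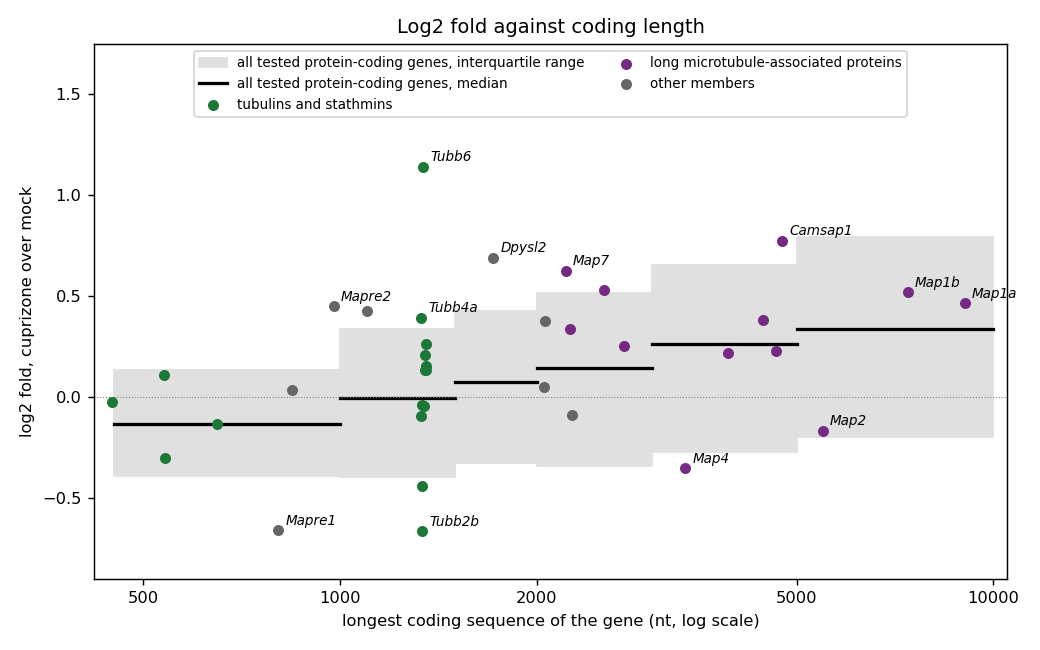
Log2 fold, cuprizone over mock, of each of the 36 genes against its longest coding sequence on a log axis, over the median (black line) and interquartile range (grey) of all tested protein-coding genes in 6 length bins, of which the first and last are open-ended. The black line climbs from -0.13 to 0.34, and the coloured points follow it with scatter on both sides; Tubb2b, Mapre1 and Map4 are among those below the grey band, and Dpysl2, Mapre2, Map7, Camsap1, Tubb4a and Tubb6 among those above it.

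Across the 36 genes, the log2 fold and the log2 of coding length had a Pearson r of 0.33 and a Spearman rho of 0.40; across all 13697 tested protein-coding genes with a coding length, these were 0.12 and 0.21. Genes are not independent replicates, and all points share the same 4 libraries. As levels, the summed CPM of the short genes was 2.10 and 2.15 times that of the long genes in cuprizone and 2.61 and 2.504 times in mock libraries. These ratios did not overlap. The summed share of the neuron markers, mostly Snap25, was higher and that of the astrocyte markers lower in both cuprizone libraries; the part of cell make-up in the ratio was not tested.

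**Figure D5:**
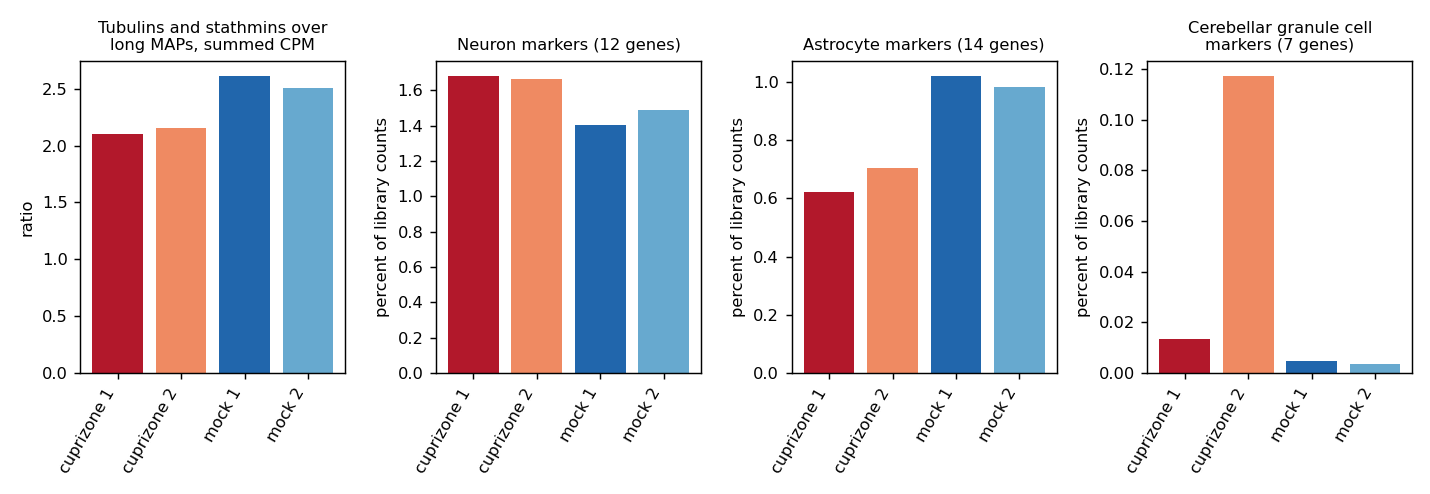
From left to right, for each of the 4 libraries: the ratio of the summed CPM of tubulins and stathmins to that of long MAPs, and the percent of library counts in 12 neuron markers, 14 astrocyte markers and 7 cerebellar granule cell markers. The ratio and the astrocyte share are lower, and the summed neuron share, mostly Snap25, higher, in both cuprizone libraries; granule cell markers reach 0.117% in cuprizone 2 alone.

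The 3 end-binding proteins, which track growing plus ends, differed among themselves. Mapre1 (ENSMUSG00000027479, chromosome 2, 153741274 to 153773310, plus strand), the form found in most cells, had 179 and 232 CPM in cuprizone and 319.9 and 298 CPM in mock libraries, with a log2 fold of -0.66 (SE 0.18). Both cuprizone libraries lay below both mock libraries, the edgeR adjusted p was 0.243 and the DESeq2 adjusted p 0.0218, with a range of 0.0218 to 0.639 over all alternatives. Mapre2 had 544 and 675 CPM in cuprizone and 468 and 383 CPM in mock libraries, with a log2 fold of 0.45 (SE 0.18), or 0.27 without cuprizone replicate 2, and with both cuprizone libraries above. Mapre3, a form enriched in neurons, had 500.2 and 525 CPM in cuprizone and 507 and 445 CPM in mock libraries and overlapped. The CPM ratio of Mapre2 to Mapre1, chosen after the values were seen, was 3.05 and 2.92 in cuprizone and 1.46 and 1.29 in mock libraries, so the balance of the pair differed by more than the gap within either group.

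Dpysl2 (ENSMUSG00000022048, chromosome 14, 66802864 to 66868688, minus strand), a collapsin response mediator that carries tubulin dimers to growing ends, had the lowest p of the 36 genes. It had 2606 and 2918 CPM in cuprizone and 1431 and 1832 CPM in mock libraries, with a log2 fold of 0.69 (SE 0.16). The edgeR adjusted p was 0.194 and the DESeq2 adjusted p 0.00237, with a range of 0.00237 to 0.575 over all alternatives, and the log2 fold ran from 0.52 to 0.90 with 1 library left out. Its relative Dpysl3 had 54.1 and 58.8 CPM in cuprizone and 50.6 and 53.3 CPM in mock libraries, with a log2 fold of 0.05 (SE 0.20), with all 4 libraries close together. Crmp1, a neuronal relative, had 170.3 and 302 CPM in cuprizone and 156 and 192 CPM in mock libraries; as with Tubb4a, cuprizone replicate 2 was the high library, and the log2 fold of 0.38 (SE 0.29) was -0.11 without it. Dcx, the marker of migrating young neurons, was low in all libraries, at 15.5 and 19.1 CPM in cuprizone and 14.2 and 10.3 CPM in mock libraries, and its log2 fold was 0.43 (SE 0.36), or 0.26 without cuprizone replicate 2. Dclk1, a doublecortin-like kinase, was level, at 465 and 515 CPM in cuprizone and 486 and 508 CPM in mock libraries.

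Other genes of the microtubule system came from a list of 98 symbols that holds none of the 36. Of these, 92 were tested and edgeR called 0. At an unadjusted p under 0.05, 12 had a positive and 1 a negative log2 fold, against 5.73% and 7.04% of all tested genes, and DESeq2 called 5 higher and 0 lower, against 1.67% and 2.85%. The median log2 fold was 0.25, and no test compared this list with the 36 genes. The list was not set against the length bins. The highest median of the 9 role groups, 1.45, was that of 5 genes listed as spectraplakins: Dst, Macf1, Gas2, Gas2l1 and Gas2l3. Their most abundant gene Dst, a giant linker of filaments and microtubules, had 138 and 156 CPM in cuprizone and 49.98 and 52.8 CPM in mock libraries, with a log2 fold of 1.45 (SE 0.18; edgeR adjusted p = 0.0806, DESeq2 adjusted p = 1.36e-08). Its coding sequence of 23151 nt is longer than that of any of the 36, which places it in the highest length bin. That bin is open-ended from 5000 nt. Over all its tested protein-coding genes the median log2 fold was 0.34 and the upper quartile 0.79, both below the value of Dst. The genes of the bin were not matched to Dst in length, so these values do not compare Dst with genes of its own length. Macf1, the listed gene closest to Dst in coding length at 22065 nt, had a log2 fold of 1.64 (SE 0.32; edgeR adjusted p = 0.161, DESeq2 adjusted p = 0.00012). The part of length in the value of Dst was not tested. The 7 tubulin folding genes had a median of -0.16, and their most abundant, Tbcb, 195 and 216 CPM in cuprizone against 282 and 209 CPM in mock libraries. The most abundant genes of the other groups had log2 folds of 0.41 (SE 0.18) for Clip3, a plus-end tracking protein, and 0.44 (SE 0.23) for the severing enzyme Katnal1. Those of Tubg2, the kinase Mapk10 and the deacetylase Sirt2 were 0.27 (SE 0.19), 0.14 (SE 0.13) and -0.03 (SE 0.18). Mzt1 of the gamma-tubulin ring complex had -0.20 (SE 0.22) and Ensa -0.24 (SE 0.18). Ensa was listed with the lattice-binding and bundling genes, but its binding to microtubules was not checked. The next most abundant gene of that group, Tppp, had -0.22 (SE 0.17). The edgeR adjusted p of the genes named here from Tbcb to Tppp ran from 0.415 to 0.976.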

How the data were processed

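The authors deposited 1 table of raw counts per Ensembl gene for each of the 4 libraries. Per the submitters' processing notes, FastQC 0.11.9, STAR 2.5.4b and featureCounts 1.6.0 were used with GRCm38; which annotation was used, whether strand was counted and how multi-mapping reads were treated is not given in the sources used here. Per the labels' protocols, pulled-down RNA was purified on columns, selected by RNA integrity and made into low-input libraries.

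Symbols were matched for 55144 of 55471 ids. CPM was taken on library totals. The main test was the quasi-likelihood test of edgeR 4.0.16, run in R 4.3.3 (filterByExpr, TMM factors of 0.974 to 1.03, glmQLFit with robust estimation and its default dispersions, glmQLFTest, 2-sided, Benjamini-Hochberg adjustment over 15816 genes, threshold 0.05), with no covariate; the procedure was tested on simulated data. Log2 folds come from this fit, and the SE is the log2 fold divided by the square root of F. Scaling on totals alone moves the median log2 fold of all genes to 0.07. Alternatives included DESeq2 1.42.0 and limma 3.58.1. Exon and coding lengths and sequences come from GENCODE M21, and coding sequences were aligned with Biopython 1.88. Exon length was the union of all annotated exons of a gene, not the length of 1 message, so levels, shares and ranks per kilobase depend on the annotation. Shared stretches were exact matches of 75 bases in either orientation. A count of 0 allows up to 0.126 to 0.141 CPM (3 counts), for counting error only.

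The members, the lists and the length classes were chosen with earlier results of these data known. Named were all 36 members and, of the other microtubule genes, any called and the most abundant of each role group. Macf1, Gas2, Gas2l1, Gas2l3 and Tppp were named in addition, after the values were seen.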

Additional observations from a re-analysis of the deposited data

How the results depend on the processing

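Over 13 refits, the count of the 36 genes called stayed at 0 except with DESeq2, which called 4. The count over all genes was 13 in the main test, 191 with no filter on low counts, 68 at a mean CPM of at least 1, 715 with DESeq2, 47 with limma-voom, 51 with bias-adjusted dispersions and 5 to 123 with 1 library left out; the cause was not tested. The replicate numbers do not pair the libraries by any label, and the deviations of same-numbered libraries had a correlation of -0.012; with the replicate block the test called 10 genes, 0 of the 36, and no direction among the 36 changed. The difference in median log2 fold between short and long genes kept its sign in each of the 13 refits and ran from -0.38 to -0.32 with 1 library left out. It was -0.39 without the 2 genes under a mean of 5 CPM, -0.34 on CPM with a pseudocount of 0.5 and -0.26, an alternative chosen after seeing the data, when long genes needed a coding length of at least 3000 nt; a protein length table was not used here, so the planned limit in residues was not run. The median log2 fold of the 36 was 0.25 on library totals alone and ran from 0.0046 to 0.28 with 1 library left out.

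On library totals alone, Tuba4a had 0.026, Tubb4b 0.032 and Stmn1 0.048, against negative log2 folds in the main fit. Leaving out 1 library turned the sign in 11 of the 36 genes, with ranges of -0.028 to 0.27 for Tuba1a, -0.22 to 0.42 for Tuba1c, -0.14 to 0.041 for Tuba4a, -0.12 to 0.77 for Tubb4a, -0.072 to 0.0041 for Tubb4b, -0.17 to 0.11 for Stmn1, -0.35 to 0.068 for Map2, -0.047 to 0.50 for Map6, -0.032 to 0.13 for Mapre3, -0.11 to 0.74 for Crmp1 and -0.021 to 0.12 for Dpysl3. The other 25 kept their direction in every refit that tested them.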
